A study of Homo sapiens with 24 samples.

Results

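The genes described here are the clustered replication histone genes, which encode the histone proteins made while DNA is copied. They were chosen by name: every probe whose gene name on the array starts with HIST1H, HIST2H, HIST3H or HIST4H was taken, and a gene with several probes was represented by its brightest probe. This gave 69 genes on 83 of the 34127 probes of the array, and 64 of the genes passed the filter on dim probes and were tested. Of the tested genes, 5 encode the linker histone H1, 16 encode H2A, 17 encode H2B, 13 encode H3 and 13 encode H4. By cluster, 52 belong to HIST1 on chromosome 6, 8 to HIST2 and 3 to HIST3, both on chromosome 1, and 1 to HIST4 on chromosome 12. The genes that did not pass were HIST1H1T, HIST1H2APS1, HIST1H2BA, HIST1H4G and HIST2H2BA.

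The data come from A549 and H1975, which are established human lung adenocarcinoma cell lines. Cells of each line were given 0.75 mg/ml Pirfenidone, an antifibrotic drug, or the same volume of its solvent PBS, and were harvested after 6 h or 24 h. There were 8 groups of 3 samples and 24 one-color Agilent arrays, 1 for every sample. No genetic change was introduced in either line, and by their labels the groups of a line differ only in treatment and time. The labels do not say whether the samples of a group came from separate cultures, so p-values measure the spread between these samples, which may be technical.

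Chromosomal DNA is wound around a core of H2A, H2B, H3 and H4, and H1 binds where the DNA enters and leaves that core. Cells need a new set of histones each time they copy their genome, and the clustered genes supply it: their transcription rises at the start of S phase with the coactivator NPAT, and their mRNAs are lost when DNA synthesis stops. These mRNAs end in a conserved stem-loop bound by SLBP instead of a poly(A) tail. Some of the genes can also give a longer, polyadenylated transcript that is not tied to S phase. The labeling kit used here primes from poly(A), as background, so a signal for these genes comes from polyadenylated or A-rich copies of their RNA. How that share relates to the stem-loop form was not tested.

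The stem-loop can be read in the array's own probes. Its 16-letter pattern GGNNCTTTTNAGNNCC was found in 6 of the 83 histone probes and in 7 of all 34127 probes (0.0205%). The stretches of these 6 probes are shown because they mark the end of the short transcript form, with the stem-loop in capitals and the array's target strand read 5′ to 3′.
HIST1H2BE: acccaaaGGCTCTTTTCAGAGCCactca
HIST1H2BF: tcccaaaGGCTCTTTTAAGAGCCa
HIST1H2AI: aaccaaaGGCTCTTTTCAGAGCCaccta
HIST2H3A: tccaaaaGGCTCTTTTCAGAGCCacc
HIST1H3H: acccaaaGGCTCTTTTCAGAGCCaccca
HIST1H4K: aacaaaaGGCCCTTTTTAGGGCCcc
The probes of HIST1H2BE, HIST1H2BF, HIST1H2AI and HIST2H3A are the brightest of their genes and are the values used below, and those of HIST1H3H and HIST1H4K are second probes.

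The upstream sequences show what the classes share beyond their names. RefSeq promoters on GRCh38.p14 were found for 61 of the 69 genes, matched by transcript accession. In the 250 bases before the start site, on either strand, the letters AAACACA (the H1 box) stood in 6 of 6 H1 promoters and in no promoter of H2A, H2B, H3 or H4, against 4.82% of 35116 promoters. The octamer ATTTGCAT stood in 14 of 18 H2B promoters and 10 of 14 H2A promoters, against 1.63% of all, in 1 of 11 H3 promoters and in none of the 12 H4 promoters. That H3 promoter, of HIST1H3D, had its motifs at the same positions as the H2A promoter of HIST1H2AD. It may be the same stretch counted in both classes. The letters CCAAT stood in every H1, H2A, H2B and H3 promoter examined and in 3 of 12 H4 promoters, against 32% of all. TATAAA stood in 50% of H1, 71.4% of H2A, 66.7% of H2B, 72.7% of H3 and 58.3% of H4 promoters, against 10.7% of all. A match is a description of letters and not a binding site. The 150 bases before the start site are shown for 1 or 2 genes of each class, each on the minus strand of chromosome 6, 5′ to 3′, with these 4 motifs in capitals on either strand.
HIST1H1B, chr6:27867589-27867738: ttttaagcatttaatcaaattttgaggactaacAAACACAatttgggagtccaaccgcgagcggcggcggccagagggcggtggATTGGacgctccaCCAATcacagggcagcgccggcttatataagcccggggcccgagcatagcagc
HIST1H2AB, chr6:26033619-26033768: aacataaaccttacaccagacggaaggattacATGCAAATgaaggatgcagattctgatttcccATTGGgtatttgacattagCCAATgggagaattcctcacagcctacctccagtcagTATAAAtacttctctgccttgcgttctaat
HIST1H2BB, chr6:26043714-26043863: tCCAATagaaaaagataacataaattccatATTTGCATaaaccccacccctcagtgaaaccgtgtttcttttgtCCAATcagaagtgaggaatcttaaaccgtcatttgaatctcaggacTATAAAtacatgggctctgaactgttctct
HIST1H2BJ, chr6:27132796-27132945: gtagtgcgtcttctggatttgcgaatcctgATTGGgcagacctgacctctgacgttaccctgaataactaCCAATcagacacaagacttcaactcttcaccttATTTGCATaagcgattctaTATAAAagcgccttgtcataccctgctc
HIST1H3B, chr6:26032100-26032249: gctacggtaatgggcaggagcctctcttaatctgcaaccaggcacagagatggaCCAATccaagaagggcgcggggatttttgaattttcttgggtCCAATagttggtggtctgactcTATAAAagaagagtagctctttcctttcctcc
HIST1H4B, chr6:26027284-26027433: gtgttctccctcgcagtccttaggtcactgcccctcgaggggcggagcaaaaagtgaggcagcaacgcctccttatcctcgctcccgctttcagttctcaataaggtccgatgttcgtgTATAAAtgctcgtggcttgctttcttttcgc
HIST1H1B carries the H1 box far upstream and a pair of CCAAT letters, the H2A and H2B promoters carry the octamer at different distances from TATAAA, HIST1H3B carries CCAAT without an octamer, and HIST1H4B carries none of these but TATAAA.

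Levels are given below as log2 of the processed signal relative to the 75th percentile of the same array, so that 0 is the brightness of the probe at that percentile and values of different genes' probes cannot be set against each other. A member was called at a limma adjusted p of at most 0.05 with a log2 difference of at least 1 in size. The share of probes well above background ran from 62.7% to 69.5% over the arrays, no probe was saturated, and 60 of the 64 tested members were well above background on all 24 arrays. The epithelial genes EPCAM and KRT8 cleared background on every array in both lines, and of the markers of other cell types reported here CD3E was well above background on 1 of 24 arrays and COL3A1 on none. The leukocyte markers PTPRC and CD14 and the endothelial marker CDH5 were well above background on all or all but 1 of the arrays, and PECAM1 (endothelium) and PDGFRB (fibroblasts) on all 12 H1975 arrays and no A549 array. None of these was called with Pirfenidone, and the value of PDGFRB in H1975 at 6 h was 0.97 ± 0.32 (limma adjusted p = 0.185). The part of other cells in the histone results was not tested. A run here means the arrays that share a day in the array name, which gave 4 runs. What was done on that day is not stated. A run that holds a line and time has 1 PBS and 1 Pirfenidone array of it. The last digit of the array name, taken as the place on the slide, went with the group in both lines. It was 1 for Pirfenidone and 2 for PBS at 6 h, and 3 for Pirfenidone and 4 for PBS at 24 h. Effects of place cannot be told apart from those of treatment or time. In H1975 at 24 h the PBS array of run 3 was on another slide than its Pirfenidone array. A pair of arrays stood apart in the histone genes. In A549 at 24 h, replicate 3 of PBS was the lowest of its 3 arrays for 58 of 64 members and replicate 2 of Pirfenidone the lowest of its 3 for 59. Results on A549 at 24 h are therefore also given without the arrays of run 1, which hold that PBS sample, without those of run 3, which hold that Pirfenidone sample, and without both samples, the latter 2 chosen after seeing the data.

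The clearest change lay in H1975 at 24 h. There 12 of 64 histone genes fell with Pirfenidone and none rose, at a limma adjusted p of at most 0.05 and a log2 difference of at least 1, which is 18.8% of the members against 1% of all probes tested called lower, 0.89% called higher and 1.89% called in all. The median difference of the members was -0.53 on the log2 scale, against 0.02 over all probes tested. Pirfenidone arrays lay below all PBS arrays for 43 members (67.2%, against 15.6% of all probes) and above them for 4 (6.25%, against 16.3%). At an adjusted p of at most 0.05 without the limit on size, 17 members fell and none rose, against 3.35% and 2.91% of all probes.

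**Figure D1:**
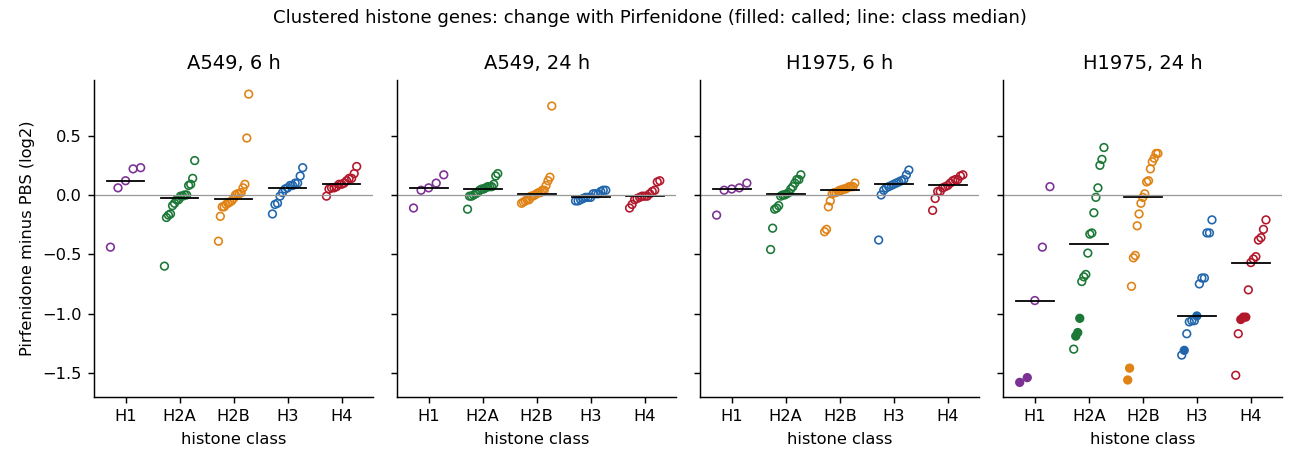
Difference Pirfenidone minus PBS (log2, vertical axis) of the 64 tested histone genes by class, in A549 and H1975 at 6 h and 24 h. Each point is a gene, filled points were called and the black line is the class median; in H1975 at 24 h the medians were -0.89 for H1, -0.41 for H2A, -0.02 for H2B, -1.02 for H3 and -0.57 for H4, and only there were members called.

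The linker histone H1 gave 2 of the called genes in H1975 at 24 h. HIST1H1A, an H1 gene whose probe lies at chr6:26017351-26017410 on hg19, was at 2.76, 2.57 and 2.96 with PBS and at 1.60, 1.52 and 0.43 with Pirfenidone. All Pirfenidone samples were thus lower than all PBS samples, and replicate 3 was the lowest. Its difference was -1.58 ± 0.36 (SE, n = 3 and 3, limma adjusted p = 0.0163), a 2.99-fold lower level. HIST1H1B, which encodes another H1 protein, went from 0.25, 0.17 and 0.91 to -0.76, -0.73 and -1.79, a difference of -1.54 ± 0.34 (adjusted p = 0.0143). HIST1H1D was at -0.89 ± 0.23 (adjusted p = 0.0281), below the limit on size, and HIST1H1E at -0.44 ± 0.19 (adjusted p = 0.172). HIST1H1C, an H1 gene also expressed outside S phase, was at 4.50, 4.68 and 4.89 with PBS and at 4.60, 4.73 and 4.96 with Pirfenidone. These groups overlapped, and its difference was 0.07 ± 0.19 (adjusted p = 0.89).

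H3 and H4 form the inner tetramer of the core particle, and all 13 tested genes of each were below 0 in H1975 at 24 h in each of the 3 runs. The groups did not overlap for 12 of 13 in either class, against 15.6% of all probes with Pirfenidone lower. The share of all probes on one side of 0 in all 3 runs was not computed, for these or the later counts. HIST1H3B, an H3 gene, was at 2.65, 2.60 and 3.20 with PBS and at 1.72, 1.76 and 1.03 with Pirfenidone (difference -1.31 ± 0.38, limma adjusted p = 0.0482). HIST1H3I went from -0.23, -0.29 and 0.12 to -1.02, -0.98 and -1.46, and fell by 1.02 on the log2 scale (SE 0.27, adjusted p = 0.0316). In both genes the groups did not overlap. The largest difference of the class, HIST2H3A at -1.35 ± 0.55, did not pass (adjusted p = 0.155), and its PBS arrays lay at 3.71, 3.79 and 5.04. HIST1H4L had the smallest adjusted p of the members: it was at 4.35, 4.23 and 4.34 with PBS and at 3.57, 3.58 and 2.68 with Pirfenidone, a difference of -1.03 ± 0.18 (adjusted p = 0.00355). Its probe lies at chr6:27840949-27841008 on hg19. The other called H4 genes were HIST1H4B and HIST1H4E. HIST1H4B was at 2.99, 2.97 and 3.08 with PBS and at 2.30, 2.28 and 1.37 with Pirfenidone (-1.03 ± 0.20, adjusted p = 0.00686). HIST1H4E was at 2.25, 2.09 and 2.64 with PBS and at 1.52, 1.51 and 0.79 with Pirfenidone (-1.05 ± 0.24, adjusted p = 0.0148). As in the other called members, Pirfenidone replicate 3 was the lowest array of both. HIST1H4C, another H4 gene, was at -0.80 ± 0.16 (adjusted p = 0.00924) and so below the limit on size. HIST4H4, the single gene of its cluster, was at -1.52 ± 0.51 (adjusted p = 0.0836).

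H2A and H2B, which sit on the outside of the core as dimers, were split. Of 16 H2A genes, 3 were called lower and 11 were below 0 in all 3 runs, while 4 were above 0 in all 3. HIST2H2AC was at 2.26, 1.91 and 2.30 with PBS and at 1.25, 1.22 and 0.51 with Pirfenidone (difference -1.16 ± 0.27, limma adjusted p = 0.0169). HIST1H2AB went from -0.70, -0.75 and -0.49 to -1.52, -1.48 and -2.50 and fell by 1.19 on the log2 scale (SE 0.31, adjusted p = 0.0299). HIST1H2AI went from -0.29, -0.48 and -0.23 to -1.23, -1.07 and -1.82 and fell by 1.04 (SE 0.24, adjusted p = 0.0183). The groups did not overlap in any of these genes, and HIST1H2AL was at -1.30 ± 0.40 without passing (adjusted p = 0.0585).

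The H2B class had a median of -0.02 with both ends far from it. HIST1H2BE was at -0.88, -1.17 and -0.94 with PBS and at -2.15, -2.28 and -3.23 with Pirfenidone, a difference of -1.56 ± 0.35 (limma adjusted p = 0.0142). HIST1H2BF went from -1.43, -1.59 and -1.0 to -2.56, -2.43 and -3.41, a difference of -1.46 ± 0.38 (adjusted p = 0.0292). These were the 2 called H2B genes. Of the 17 tested, 8 were below 0 in all 3 runs and 7 were above 0 in all 3. HIST1H2BD lay at 1.65, 1.73 and 1.99 with PBS and at 2.02, 2.01 and 2.40 with Pirfenidone, so that the groups did not overlap (difference 0.35 ± 0.17, adjusted p = 0.228). HIST1H2BK (0.35 ± 0.14, adjusted p = 0.139), HIST1H2BI (0.31 ± 0.15, adjusted p = 0.226) and HIST1H2BM (0.28 ± 0.14, adjusted p = 0.252) were also above 0 without passing. The octamer was found both in the promoters of the called genes HIST1H2BE and HIST1H2BF and in those of HIST1H2BI, HIST1H2BK and HIST1H2BM. It was not found in the promoter of HIST1H2BD.

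**Figure D2:**
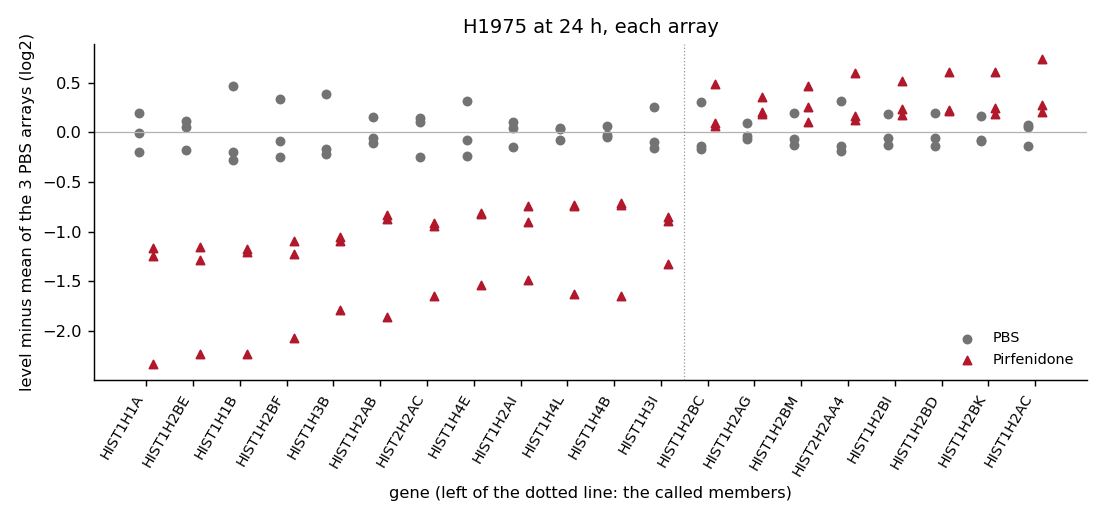
Level of each H1975 array at 24 h minus the mean of the 3 PBS arrays of the gene (log2, vertical axis), for the 12 called members left of the dotted line and the 8 members with the highest differences right of it. Grey circles are PBS and red triangles Pirfenidone arrays; for all 12 called members the Pirfenidone arrays lie below the PBS arrays, with replicate 3 lowest, and on the right the differences run from 0.22 for HIST1H2BC to 0.40 for HIST1H2AC.

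The fall in H1975 at 24 h was largest in run 1. Within runs, the member median was -0.89 in run 1, -0.36 in run 3 and -0.33 in run 4, against 0.00, 0.02 and 0.04 over all probes. Of the 49 members below 0 in all 3 runs, 47 were furthest from 0 in run 1. The H3 median was -1.58, -0.73 and -0.70, the H4 median -1.04, -0.38 and -0.30, and the H2B median -0.06, -0.04 and 0.01 in runs 1, 3 and 4. In each run H3 was thus the lowest of these 3 classes and H2B the nearest to 0. Without both arrays of run 1 the member median was -0.33 and no member was called, against 0.277% of all probes. Without run 3 there were 2 called and without run 4 there were 6, against 0.676% and 0.923%, with medians of -0.60 and -0.61. Leaving out single arrays gave 0 called without Pirfenidone replicate 3, 1 without PBS replicate 3, 4 without PBS replicate 1 and 8 without PBS replicate 2, against 0.436%, 1.15%, 0.969% and 1.38% of all probes. Arrays of the same run deviated together, with correlations of 0.46, 0.53 and 0.72 across probes, and with the run as a block 20 members were called, all lower, against 2.95% of all probes. The 8 added were HIST4H4, HIST2H3A, HIST1H2AL, HIST1H3F, HIST1H4A, HIST1H3J, HIST1H3H and HIST1H3D, of which 5 encode H3, 2 encode H4 and 1 encodes H2A. A fit of only the 6 arrays compared called none (adjusted p of the 12 in limma between 0.0575 and 0.094, against 0.6% of all probes called). An ordinary test of the 3 paired differences of each gene by run, which pools no spread over genes, also called none. Its limits were an unadjusted p of 0.05 and a log2 difference of at least 1 in size, which 2.2% of all probes met.

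**Figure D3:**
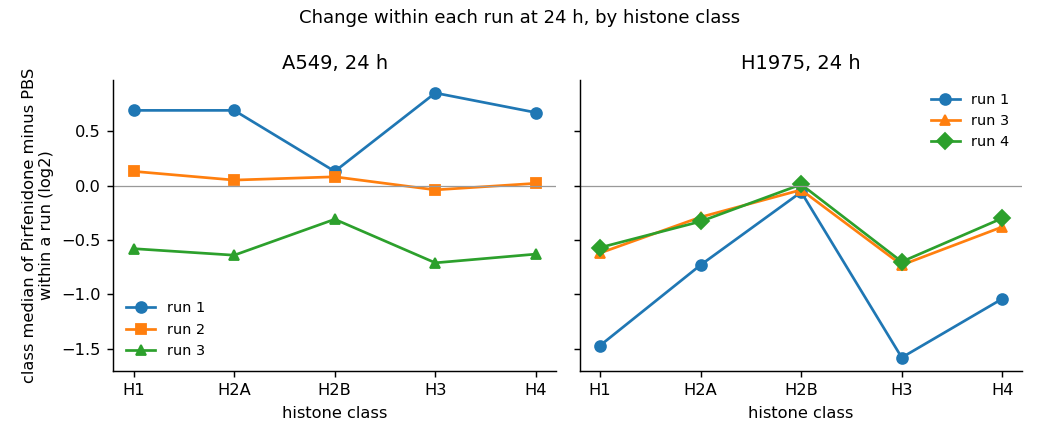
Median difference Pirfenidone minus PBS within each run at 24 h (log2, vertical axis) by histone class, for A549 on the left and H1975 on the right; each line joins the class medians of 1 run. In H1975 H3 is lowest in each run, and in A549 run 1 lies above 0, run 2 near 0 and run 3 below 0.

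In A549 at 24 h no histone gene was called by limma, against 0.0126% of all probes, and none had an unadjusted p below 0.05, against 160 lower and 67 higher of 23827 probes. The median was 0.01, but the runs went apart. It was 0.66 in run 1, with 62 of 64 members above 0, 0.03 in run 2 and -0.62 in run 3, with 58 below 0. HIST1H3B shows this: PBS was at 3.53, 2.89 and 2.19 and Pirfenidone at 3.55, 1.75 and 3.26 in replicates 1 to 3, which are runs 2, 3 and 1. Without both arrays of run 1 the median was -0.31, with 59 members below 0 and a lowest adjusted p of 0.491. Without both arrays of run 3 it was 0.32, with 61 members above 0 and a lowest adjusted p of 1, and without both samples that stood apart it was 0.06, with 52 above 0 and a lowest adjusted p of 1. The direction in A549 at 24 h thus turned with the arrays left out. The largest differences by class among genes well above background on all arrays were small: HIST1H1D 0.17, HIST1H2AC 0.18, HIST1H2BE 0.15, HIST2H3A -0.05 and HIST1H4L 0.12, all with an adjusted p of 1. Without both arrays of run 1 HIST1H1D, HIST1H2BE and HIST1H4L were below 0 instead, at -0.24, -0.60 and -0.07 (adjusted p in limma from 0.564 to 0.987).

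The test of the difference between the lines did not separate them at 24 h. The change in H1975 minus that in A549 had a median of -0.52 over the members and none passed in limma, against 0.193% of all probes, although 22 had an unadjusted p below 0.05, all lower in H1975, against 1362 lower and 1542 higher of all 23827 probes. The 22 include HIST1H1A, not well above background on any A549 array, and HIST1H2BF, well above background on 1 of 3 A549 PBS arrays at 24 h. A change in A549 could not be measured for HIST1H1A and was uncertain for HIST1H2BF, so their line differences are not read as results. HIST1H4L had the smallest adjusted p, 0.0636, at -1.15 ± 0.25. With the run as a block 3 members passed (1.67% of all probes), and without A549 Pirfenidone replicate 2 at 24 h 6 passed (0.483%) with a median of -0.87. Leaving out replicate 1 or replicate 2 of H1975 Pirfenidone at 24 h let 1 member pass (0.214% and 0.164%), and without both A549 arrays of run 1 none passed (0.0713%) and the median was -0.20. Without both A549 arrays of run 3, 12 passed (1.19%) with a median of -0.90, and without both A549 samples that stood apart none passed (0.21%) with a median of -0.61.

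At 6 h no histone gene passed the test with Pirfenidone. In A549 the median was 0.03 and no member was called by limma (0.176% of all probes), with 1 higher and 1 lower at an unadjusted p below 0.05, against 739 and 694 of 23827 probes. The median was -0.14 without Pirfenidone replicate 1 and 0.11 without PBS replicate 1, the widest of the single arrays left out. In H1975 it was 0.05 with none called (0.491% of all probes) and 1 lower at that level, against 955 lower and 1674 higher. The lower gene in both lines was HIST1H2AG, an H2A gene. In A549 it was at -5.48, -5.48 and -5.40 with PBS and at -6.00, -6.08 and -6.09 with Pirfenidone (difference -0.60 ± 0.14, adjusted p = 0.0866). In H1975 it was at -4.22, -4.17 and -4.35 with PBS and at -4.62, -4.72 and -4.80 with Pirfenidone (-0.46 ± 0.14, adjusted p = 0.138). The groups did not overlap in either line, and neither difference passed. Among probes well above background on all 6 arrays, the other largest values of their class were between -0.38 for HIST2H3D in H1975 and 0.48 for HIST3H2BB in A549, with adjusted p of 0.773 or more. Between times in H1975, no member passed a drug change that differed from 6 h to 24 h (median -0.53, 0.0042% of all probes, 22 lower and 2 higher at an unadjusted p below 0.05 against 955 and 441 of 23827 probes). None passed in A549 (median -0.01, 0.0294%, none lower and 1 higher at that level against 473 and 252) or between the lines at 6 h (median 0.03, 0.0336%, none in either direction against 185 lower and 441 higher).

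A head-to-head pair is an H2A and an H2B gene on opposite strands that share the stretch between their start sites, and 9 such pairs, with starts 194 to 246 bases apart, were tested for both genes. In H1975 at 24 h, HIST1H2AI was at -1.04 and its partner HIST1H2BL at 0.12, and HIST1H2AJ was at -0.69 and HIST1H2BM at 0.28. In HIST1H2AD and HIST1H2BF the H2B gene was the lower one, with 0.06 and -1.46. The log2 difference between the partners within an array did not overlap between PBS and Pirfenidone in 7 of the 9 pairs, with the H2A gene moving lower against its partner in 6 of them. Beside this, single probes did not overlap in 15.6% (lower) and 16.3% (higher) of cases, and the share among other pairs of probes was not computed. The exceptions that overlapped were HIST1H2AC with HIST1H2BC (0.40 and 0.22) and HIST3H2A with HIST3H2BB (-0.33 and -0.53). The first of these depends on the probe. The value of HIST1H2AC is from its probe at base 1145, and its probes at bases 30 and 88 were at -0.12 and -0.32. These ratios show unequal change of the 2 probes.

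Probes placed apart along the same transcript gave different values. In HIST1H2AC the probes at bases 30 and 88 of the target were at -0.12 ± 0.27 and -0.32 ± 0.26 in H1975 at 24 h, and the probe at base 1145, the brightest, at 0.40 ± 0.18. In HIST2H2BE the probe at base 72 was at -0.77 ± 0.25 and the probe at base 1109 at 0.40 ± 0.33. The 2 probes of HIST1H2BK were both above 0, at 0.21 ± 0.17 for base 141 and 0.35 ± 0.14 for base 660. In HIST2H2BF the probe at base 311 was at -0.16 ± 0.21 and those at bases 552 and 1734 at 0.30 ± 0.34 and 0.14 ± 0.35. None of these 10 values passed (limma adjusted p from 0.0725 to 0.886), and the differences between probes of a gene were not tested. HIST1H2AG had a single probe, at base 1469, and was at 0.25 ± 0.14 with groups that did not overlap. Other members with a single probe far along the target did not share a direction in H1975 at 24 h. HIST1H1C (base 590) was at 0.07, whereas HIST1H3D (base 615) was at -1.06, HIST1H1A (base 630) at -1.58 and HIST1H1B (base 671) at -1.54. In H2A and H2B genes, the probes with the stem-loop letters started at bases 366 to 409. All tested probes of these classes from base 552 on were above 0, at 0.14 to 0.40, without passing. Where the stem-loop lies in the targets of HIST1H1A, HIST1H1B, HIST1H1C and HIST1H3D was not determined. Their base numbers therefore cannot show whether a position beyond the stem-loop goes with a value above 0. Over all probes of the members, those with the stem-loop letters had a median of -1.20 with values from -1.56 to -0.44 and 3 of 6 called lower. The 72 without had a median of -0.50, values from -1.58 to 0.40 and 13 called lower, against 1% of all probes on the array that were tested. The 3 called stem-loop probes are those of HIST1H2BE, HIST1H2BF and HIST1H2AI, already counted among the called members. The difference between these 2 sets of probes was not tested. Among genes with several probes, both probes of HIST1H4L (-1.03 and -1.31) and of HIST1H2AI (-1.04 and -1.29) were called, whereas in HIST1H4C and HIST1H4D the dimmer probe was called (-1.31 and -1.33) and the brighter was not.

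**Figure D4:**
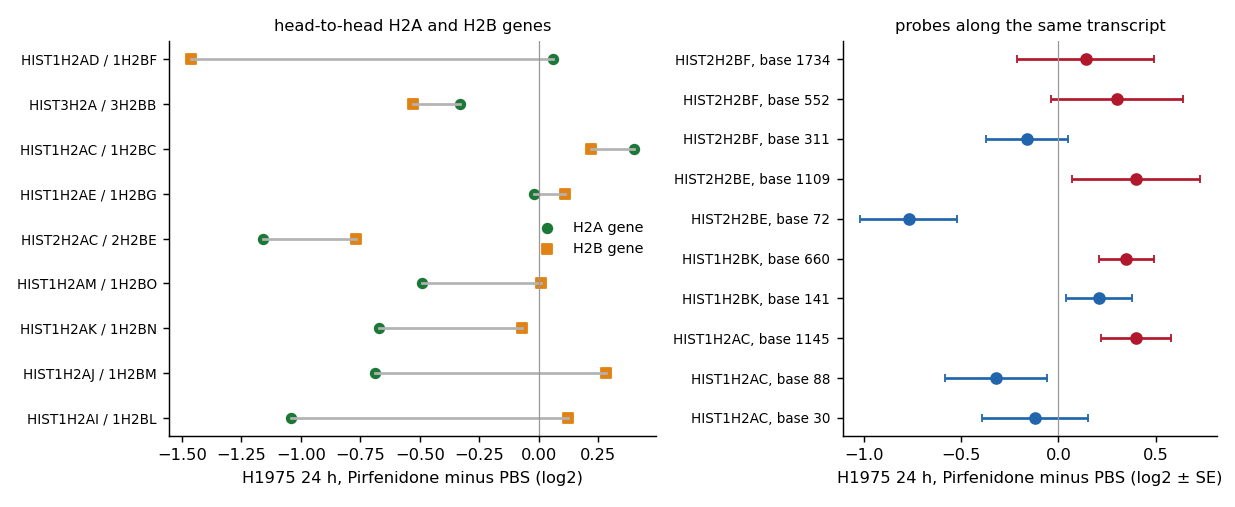
Difference Pirfenidone minus PBS in H1975 at 24 h (log2, horizontal axes). On the left, each row joins an H2A gene (green circle) to its head-to-head H2B partner (orange square), and in 6 of 9 rows the H2A gene changed lower than its partner (-0.13 to -1.15), and in HIST1H2AD and HIST1H2BF it was higher by 1.52; on the right, the probes of the 4 genes that have probes on both sides of base 500 of the target, with SE bars, blue below that base and red above, where all red points lie above 0 and all blue points below 0 except that of HIST1H2BK at 0.21.

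Some H4 and H2B probes are close copies of each other and may bind the same RNA. In 8 pairs of probes of different members, at least 90% of 40 or more overlapping bases were identical, which touched 9 members. HIST1H2BD and a dimmer probe of HIST1H2BK shared 51 of 55 bases, HIST1H4J and a dimmer probe of HIST1H4K 40 of 41, and HIST2H4B shared 46 of 50 with HIST1H4K and 45 of 50 with HIST1H4I. The values of HIST1H2BC, HIST1H2BD, HIST1H2BG, HIST1H2BK, HIST1H4F, HIST1H4I, HIST1H4J, HIST1H4K and HIST2H4B are therefore uncertain as values of single genes. None of the 12 called members is among them.

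By cluster in H1975 at 24 h, the HIST1 genes had a median of -0.53 with 11 of 52 called lower and the HIST2 genes -0.51 with 1 of 8. By position on hg19, the stretch chr6:25726563-26285556 held 31 tested genes with 7 called and a median of -0.44, chr6:27100318-27115305 held 5 with none called and -0.38, and chr6:27775286-27861647 held 16 with 4 called and -0.68. In HIST2 on chromosome 1, values ran from -1.35 for HIST2H3A over HIST2H2AC (-1.16), HIST2H2BE (-0.77), HIST2H3D (-0.70), HIST2H2AB (-0.32), HIST2H4B (-0.21) and HIST2H2BF (-0.16) to 0.30 for HIST2H2AA4. In HIST3, HIST3H2BB was at -0.53, HIST3H2A at -0.33 and HIST3H3 at -0.21, none of which passed. At 6 h and in A549 the members of HIST2, HIST3 and HIST4 lay between -0.39 and 0.48 in every drug comparison.

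Under PBS alone the lines differed in a few histone genes far more than Pirfenidone changed any. At 6 h 9 members were higher and 4 lower in H1975 by limma, 13 of 64 in all against 32.4% of all probes, and at 24 h 12 were higher and 2 lower, against 32.9%. Both shares are below that of all probes. The median of the members was 0.18 at 6 h and 0.40 at 24 h, against 0.06 and 0.08 over all probes tested. Leaving out single arrays gave 0.08 (without A549 replicate 3) to 0.32 (without A549 replicate 1) at 6 h and 0.18 (without A549 replicate 3) to 0.54 (without A549 replicate 1) at 24 h, and a run block shared by both lines gave 0.39 and 0.59.

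HIST1H1A was the extreme case. Its A549 PBS arrays lay at -6.77, -8.38 and -7.98 at 6 h and at -7.95, -9.07 and -8.88 at 24 h, none of them well above background, while H1975 lay at 3.07, 2.76 and 2.43 and at 2.76, 2.57 and 2.96. On each A549 array the lowest signal well above background, or the probe's own where higher, was taken in its place. Against these the level in H1975 was 778-fold higher at 6 h and 719-fold higher at 24 h. These folds are not strict lower limits, because the A549 array at -6.77 was still not well above background. For the measured differences limma gave adjusted p of 6.66e-15 and 1.69e-15, which rest on A549 values not well above background. The gene passed the filter on dim probes only through H1975. No A549 array of either treatment was well above background for this gene. HIST1H2BF followed: in A549 PBS it lay at -7.33, -7.56 and -6.36 at 6 h and at -7.22, -6.15 and -6.55 at 24 h, with 1 of 3 arrays well above background at each time, and in H1975 at -1.33, -1.77 and -1.55 and at -1.43, -1.59 and -1.0. The measured differences were 5.53 ± 0.38 (adjusted p = 2.54e-10) and 5.30 ± 0.38 (adjusted p = 4.89e-10). Both of these genes are among the 12 that fell in H1975 at 24 h and in A549 they were at or near background under PBS.

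HIST1H2AE was higher in H1975 by 2.27 ± 0.27 at 6 h and 2.62 ± 0.27 at 24 h (adjusted p in limma of 5.02e-07 and 7.28e-08), HIST1H3D by 1.80 ± 0.37 and 2.15 ± 0.37, and HIST1H2AL by 1.80 ± 0.40 and 2.26 ± 0.40. In each of these 3 genes the 3 H1975 arrays lay above the 3 A549 arrays at both times. Dimmer probes of a gene could differ from the brightest, which stands for it here. In HIST2H2BF the brightest was at 0.16 at 6 h and 0.36 at 24 h. Its dimmer probes had measured differences of 6.76 and 6.12 and of 5.78 and 5.57, above those of HIST1H2BF. In HIST1H2AC the brightest was at 1.1 and 1.24, and the others at 0.02 and 0.3 and at 0.04 and 0.25. In the other direction, the HIST3 pair was lower in H1975. HIST3H2BB was at -1.89, -3.29 and -3.17 in A549 and at -5.21, -4.55 and -4.47 in H1975 at 6 h (difference -1.96 ± 0.54, adjusted p = 0.00404), and at 24 h the difference was -1.86 ± 0.54 (adjusted p = 0.00589). HIST3H2A, its head-to-head partner, was at -2.13 ± 0.50 and -1.72 ± 0.50 (adjusted p = 0.00114 and 0.00586), with 2 of 3 H1975 arrays well above background at each time. HIST1H2AB (-1.09 ± 0.31) and HIST1H1D (-1.05 ± 0.23) were lower in H1975 at 6 h (adjusted p = 0.00546 and 0.000639). Runs 1 and 3 hold both lines, and within them the differences at 6 h were 5.03 and 5.79 for HIST1H2BF, 2.66 and 2.40 for HIST1H2AE, -2.04 and -1.26 for HIST3H2BB and -3.14 and -1.66 for HIST3H2A. At 24 h HIST1H2AB was at 0.09 in run 1, which holds the A549 PBS array that stood apart, and at -1.01 in run 3.

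**Figure D5:**
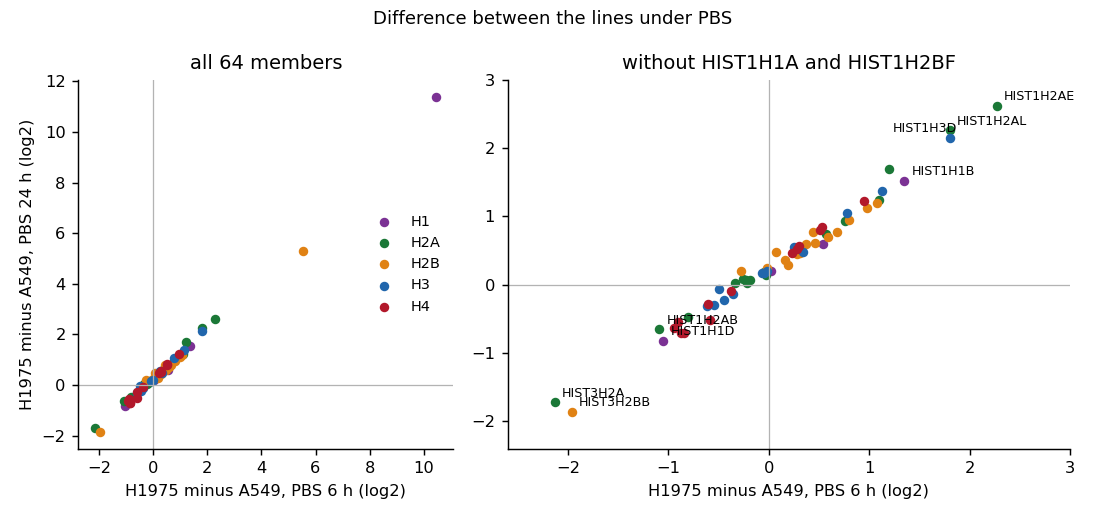
Difference H1975 minus A549 under PBS at 24 h (log2, vertical axis) against that at 6 h (log2, horizontal axis), each point a tested member colored by class; the right panel is drawn to a range that leaves out HIST1H1A and HIST1H2BF. HIST1H1A, not well above background in A549, is drawn at its measured 10.46 and 11.40. Against the lowest signals well above background in A549, or the probe's own where higher, the differences were 9.60 and 9.49. HIST1H2BF lies at 5.53 and 5.30. Both lie apart from all other members, each drawn by its brightest probe, and HIST3H2A and HIST3H2BB lie lowest at both times.

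Between 6 h and 24 h under PBS no member was called in A549 by limma (median -0.12, against 0.109% of all probes called, 1 lower at an unadjusted p below 0.05 against 935 of 23827 probes) or in H1975 (median 0.13, against 0.315%, 2 higher at that level against 1564). The A549 median ran from -0.27 without PBS replicate 1 at 24 h to 0.10 without PBS replicate 3 at 24 h. HIST1H2AG in H1975 had an adjusted p below 0.05 without the limit on size, as 0.499% of all probes did in that direction: it rose by 0.68 ± 0.14 (limma adjusted p = 0.028), from -4.22, -4.17 and -4.35 at 6 h to -3.63, -3.60 and -3.47 at 24 h.

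Genes that act with the clustered histones were examined in lists. Of 16 genes of DNA replication in S phase, all were below 0 in H1975 at 24 h and 6 were called lower by limma, against 1% of all probes, with a median of -0.98. RRM2, a subunit of ribonucleotide reductase, was at 1.07, 0.92 and 0.84 with PBS and at -0.07, -0.25 and -1.05 with Pirfenidone (difference -1.40 ± 0.30, adjusted p = 0.0131). CDT1, which loads the replicative helicase, fell by 1.36 (SE 0.32, adjusted p = 0.0177), CCNA2, the S phase cyclin A2, by 1.20 (SE 0.31, adjusted p = 0.0298) and MCM5, a helicase subunit, by 1.17 (SE 0.25, adjusted p = 0.0125) on the log2 scale. The list's medians within runs 1, 3 and 4 were -1.53, -0.69 and -0.70, with run 1 furthest from 0 as in the histone genes. In A549 at 24 h they were 0.83, -0.15 and -0.44 in runs 1, 2 and 3.

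Of 22 histone chaperones and modifiers, 2 were called lower in H1975 at 24 h (median -0.38), against the same 1% of all probes, which also applies to the lists below. HJURP, the chaperone of the centromeric H3 variant, was at 2.87, 2.88 and 3.14 with PBS and at 1.95, 1.96 and 1.28 with Pirfenidone (difference -1.24 ± 0.26, limma adjusted p = 0.0122). ASF1B, a carrier of new H3 and H4, fell by 1.19 (SE 0.28, adjusted p = 0.0176). Of 8 factors of histone gene transcription, 1 was called, CCNE2 at -1.09 ± 0.21 (adjusted p = 0.00768), which was named after its value was seen. NPAT, the coactivator of these genes, was at -0.09 ± 0.21 (adjusted p = 0.87). None of the 13 genes of histone mRNA 3′ end processing was called, with 4 lower at an unadjusted p below 0.05, against 2581 lower and 2651 higher of 23827 probes. SLBP was at 2.82, 2.67 and 2.54 with PBS and at 2.37, 2.37 and 2.16 with Pirfenidone. These groups did not overlap, and the difference of -0.38 ± 0.13 did not pass (adjusted p = 0.104). CASP8AP2, which takes part in histone mRNA processing, was at -0.12 ± 0.14 (adjusted p = 0.7). None of the 8 genes of histone mRNA translation and decay was called, with 3 higher and 1 lower at an unadjusted p below 0.05. Of 11 histone genes outside the clusters, 1 was called, H2AFX at -1.11 ± 0.28 (adjusted p = 0.0251), also named after its value was seen, which encodes the H2A variant phosphorylated at DNA breaks. No gene of these lists was called in A549 or at 6 h, where SLBP lay between -0.23 and 0.17. The lower histone and S phase levels in H1975 at 24 h occurred on the same arrays. In bulk samples, fewer cells in S phase and less RNA per cell cannot be told apart.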

How the data were processed

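Gene expression of A549 and H1975 cells was measured on 24 one-color arrays, and the labels gave each sample's condition and replicate number. The authors deposited, for every array, the intensity of each spot after background subtraction by the extraction software, and also a matrix of their own normalized log2 values. Here each array's processed signals were taken to log2, the array's 75th percentile over 43118 non-control spots was subtracted, and spots of 1 probe were averaged after removal of outlier spots. Differences were tested with limma (version 3.58.1; R version 4.3.3) by lmFit and eBayes, with all 8 groups in a single model (16 residual degrees of freedom). The model covered 23827 of 34127 probes, namely those well above background on every array of some group (a share of 0.5 of a probe's spots), and p-values were adjusted by Benjamini-Hochberg over all of them. The model was also run on simulated data with independent noise per probe. That simulation held no shared deviation of a run, so it says nothing about run effects. The number of arrays limits the precision.

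The members, lists and comparisons were chosen with earlier results of these data known. Named members are those called in a drug comparison, the largest difference of each class there among probes well above background on all 6 arrays, the 5 largest called each way between lines or times, all tested members of HIST2 to HIST4, SLBP, NPAT and CASP8AP2, and up to 6 called list genes each way. Other members are named as examples chosen after their values were seen. A marker of another cell type is not reported here. Symbols are those of the array; 67 of 69 members matched RefSeq by accession and all of these have another current symbol there. Probe positions are hg19 from the files and promoters GRCh38.p14; no hg19 annotation was used, so exons are not given. For HIST1H1A in A549, the fold between lines used the higher of the array's lowest signal well above background and the probe's own.

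Replicate numbers equal runs except in H1975 at 6 h, where same-numbered samples correlated by -0.48, 0.43 and -0.68 across probes and samples of a run by 0.50 to 0.82. In A549 the correlations were 0.58 to 0.70 at 6 h and -0.10 to 0.39 at 24 h, so the numbers pair the samples at 6 h and not at 24 h. In H1975 at 24 h they do. Replicate arrays correlated with each other by 0.9822 to 0.9963, and none were identical. The authors' log2 matrix had column medians from -0.162 to 0.155 and, with genes centred, the same scale and direction as the scanner values; the group over which genes were centred stays unknown. Alternatives were other background correction, normalization and filters, the authors' values, blocks, an ordinary paired test per gene by run and left-out arrays. The study's methods name a moderated test with a fold limit, as limma gives, and a permutation adjustment that was not run here.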

Additional observations from a re-analysis of the deposited data

Results flagged for a closer look

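In HIST1H2BF every run rose with Pirfenidone in A549 at 24 h (mean 0.75) and every run fell in H1975 (mean -1.46), a gap of -2.21; the direct limma test of this difference gave an adjusted p of 0.0971, and the A549 probe was near background. In H1975, 12 members moved one way in all 3 runs at 6 h and the opposite way in all 3 at 24 h. The share of all probes that did so was not computed, so the count is not a result about the members. Their mean differences at 6 h were small, from -0.46 for HIST1H2AG to 0.22 for HIST1H3D. The change from 6 h to 24 h was -1.28 for HIST1H3D, -1.27 for HIST1H3F, -1.19 for HIST1H4B, -1.17 for HIST1H2AI, -1.15 for HIST1H4L, -0.99 for HIST1H1D, -0.63 for HIST3H2BB, -0.56 for HIST1H2BJ, -0.37 for HIST1H4F and -0.34 for HIST2H4B. It was 0.69 for HIST1H2AC and 0.71 for HIST1H2AG, which went from below to above 0. None of these 12 passed the direct limma test of the change between times (adjusted p from 0.265 to 1). Groups of 3 are too small for a test of single outlying samples.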

How the results depend on the processing

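In H1975 at 24 h, 12 members were called lower. An ordinary test of the 3 paired differences per gene called 0 at an unadjusted p of 0.05 and a log2 difference of at least 1 in size. After Benjamini-Hochberg adjustment that test also called 0, but no probe of the array passed and the 0 says nothing about the members. The count was 0 when only the 6 arrays compared were fitted, 19 with the replicate number as a block and 20 with the run as a block. The replicate block moved no other count of called members. Without both arrays of run 1, an alternative chosen after seeing the data, it was 0 with a median of -0.33; without those of run 3 it was 2 and without those of run 4 it was 6. Leaving out single arrays gave 0 to 11 called and medians from -0.61 to -0.41. The other background correction, normalization, filters, probe rule and the authors' values gave 9 to 14 called, and the slide block 17. For the difference between lines in the drug change at 24 h, the run block let 3 members pass, single arrays left out gave 0 to 6 with medians from -0.87 to -0.28, and the median was -0.20 without both A549 arrays of run 1 and -0.90 with 12 called without those of run 3, the latter chosen after seeing the data. Between lines under PBS, a run block shared by both lines, also chosen after seeing the data, moved the 6 h median to 0.39. With no limit on size 29 members were called at 6 h and 34 at 24 h, against 58.6% and 59.2% of all probes, and 1 between times in H1975. In these comparisons leaving out single arrays gave 12 to 17 called at both times. The causes were not tested. Medians near 0 changed sign when single arrays were left out: A549 at 6 h ran from -0.14 to 0.11, A549 at 24 h from -0.19 to 0.25 and A549 between times from -0.27 to 0.10. No called member changed direction. With 3 arrays a group, small differences could not be detected, and HIST1H1A and HIST1H2BF were dim in A549.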
